A study of Mus musculus with 48 samples.

Results

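Transcript levels of 10 genes that guide monocytes from the blood into tissue were followed across 48 mouse soft-tissue sarcomas. They are the chemokine genes Ccl2, Ccl7, Ccl12, Ccl8, Ccl3, Ccl4 and Cx3cl1 and the receptor genes Ccr1, Ccr2 and Cx3cr1, taken by symbol from the 36854 genes counted. All 10 were found, and all 10 passed the filter on low counts in either tumour kind. The 32 primary tumours arose in the gastrocnemius of 129/SvJae mice with p53FL/FL alleles. These mice had received Adeno-Cre, an adenovirus bringing the recombinase that deletes the floxed p53 gene, and then 300 µg of the carcinogen MCA, at 6 to 10 weeks of age. For the 16 allografts, 50000 cells of 1 p53/MCA sarcoma line were placed in that muscle of syngeneic mice, so they represent a single tumour line, while each primary tumour arose on its own. Each mouse received 200 µg of an isotype control antibody or of muDX400, an antibody that blocks the T cell receptor PD-1, and then 0 or 20 Gy to the tumour-bearing limb. Treatment began at a tumour volume of about 150 mm3 and tumours were taken on day 3. Each allograft group held 4 tumours and each primary group held 8, numbered below in accession order, and p-values measure the spread between these tumours.

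Chemokines are small secreted proteins that draw leukocytes along a gradient through G protein-coupled receptors. Ccl2 (MCP-1), Ccl7 (MCP-3) and Ccl12 (MCP-5) act through CCR2 and call inflammatory Ly6C-high monocytes out of the bone marrow and into inflamed tissue. Ccl8 (MCP-2) differs in the mouse, where it signals mainly through CCR8. Ccl3 (MIP-1 alpha) acts through CCR1 among other receptors, and Ccl4 (MIP-1 beta) is a related ligand that draws macrophages and lymphocytes. Cx3cl1 (fractalkine) is made as a membrane-bound protein that ADAM proteases release, and its receptor CX3CR1 marks patrolling monocytes and many tissue macrophages. Monocytes that enter tumours through CCR2 are a well-known source of tumour macrophages.

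The libraries held 31.8 to 54.0 M counts, with a median of 41.2 M. Levels below are CPM, a gene's counts scaled to the size of its library with TMM factors. The summed level of 10 mesenchymal markers lay between 7865 and 70372 CPM across the tumours and that of 8 epithelial markers between 10.2 and 442.6 CPM, with Krt5 and Krt14 below 1 CPM in every tumour. The summed level of 10 skeletal muscle markers ran from 15.6 to 79465 CPM, so tumours differed widely in muscle RNA. Trp53 gave 20.2 to 60.7 CPM in all 48 tumours, a count over the whole gene that does not check the deleted exons.

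The genes lie in compact groups on the GRCm38 assembly. Ccl2, Ccl7, Ccl12 and Ccl8 are neighbours on chromosome 11 within 81.2 kb (82035571 to 82116799), all on the plus strand. Ccl3 (83647844 to 83649355, minus strand) and Ccl4 (83662584 to 83664683, plus strand) share 16.8 kb further along that chromosome. Ccr1 (123962124 to 123968692, minus strand) and Ccr2 (124101950 to 124113557, plus strand) sit within 151.4 kb of chromosome 9, which also carries Cx3cr1 (119901616 to 120069879, minus strand). Cx3cl1 is on chromosome 8 (94772009 to 94782427, plus strand). The annotation places an antisense gene, Gm33858, over 78 exon bases of Cx3cr1. Whether counting used strand is not given in the sources used here, so the Cx3cr1 counts may hold reads of Gm33858.

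Promoters of 7 of the 10 genes matched the RefSeq table (GRCm38.p6), and Ccl2, Ccl7 and Ccl4 did not match. The promoters of Ccl12, Ccl8 and Ccl3 are shown, since all 3 ligand genes rose after radiation in the primary tumours with isotype antibody. Each is the 250 bases before the RefSeq start, read 5′ to 3′ on the coding strand, from chr11:82101595-82101844 (plus), chr11:82114935-82115184 (plus) and chr11:83649379-83649628 (minus). Capitals mark matches to the searched motifs.
Ccl12: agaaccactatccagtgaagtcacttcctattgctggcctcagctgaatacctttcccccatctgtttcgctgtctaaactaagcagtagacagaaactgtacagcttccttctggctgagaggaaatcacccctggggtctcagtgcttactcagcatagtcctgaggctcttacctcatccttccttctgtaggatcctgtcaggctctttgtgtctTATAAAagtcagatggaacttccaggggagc
Ccl8: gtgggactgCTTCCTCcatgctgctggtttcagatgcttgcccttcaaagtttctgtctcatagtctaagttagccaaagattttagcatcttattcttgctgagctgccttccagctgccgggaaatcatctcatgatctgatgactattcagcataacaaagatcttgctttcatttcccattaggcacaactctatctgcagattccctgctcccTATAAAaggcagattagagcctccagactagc
Ccl3: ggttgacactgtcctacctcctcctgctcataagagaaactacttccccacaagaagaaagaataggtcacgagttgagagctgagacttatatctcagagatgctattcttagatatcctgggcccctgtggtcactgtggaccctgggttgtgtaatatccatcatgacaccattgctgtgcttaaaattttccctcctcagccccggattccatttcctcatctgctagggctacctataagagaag
The TATA box letters TATAAA begin 31 bases before the Ccl12 start and 32 bases before the Ccl8 start, and were also found 6 bases before the Cx3cl1 start. They occur in 12.4% of the 32851 promoters of this length. The letters GAGGAAG, named for the myeloid transcription factor PU.1, were found on the opposite strand in Ccl8 and Cx3cl1 (10.6% of promoters). The NF-kappaB letters, GGG and CC with any 5 bases between them, were found in Ccr1 and Cx3cr1 (45.8% of promoters). Searches of both strands for the interferon-response letters, GAAA repeated after any 2 bases (3.0% of promoters), for the GAS letters TTCNNNGAA (7.0%) and for the AP-1 letters TGANTCA (6.7%) gave 0 matches in the 7 windows. The Ccl3 window held 0 of the 6 motifs.

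Per kilobase of exon, the MCP ligands had far higher levels than the MIP-1 ligands in the unirradiated isotype tumours. In the primary tumours the medians were 104.1 CPM per kb for Ccl8, 74.6 for Ccl2, 70.4 for Ccl7 and 69.6 for Ccl12, against 1.69 for Ccl4 and 0.784 for Ccl3. The receptors and fractalkine lay between these, at 34.5 CPM per kb for Cx3cr1, 31.2 for Cx3cl1, 13.2 for Ccr1 and 9.14 for Ccr2. The allografts had the same extremes, with Ccl8 highest (264.7 CPM per kb) and Ccl3 lowest (3.15). After 20 Gy the primary medians were 701.5 CPM per kb for Ccl8, 559.6 for Ccl7, 519.6 for Ccl2 and 239.2 for Ccl12, while Ccl3 and Ccl4 were still the lowest of the 10, at 7.21 and 15.4.

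**Figure D1:**
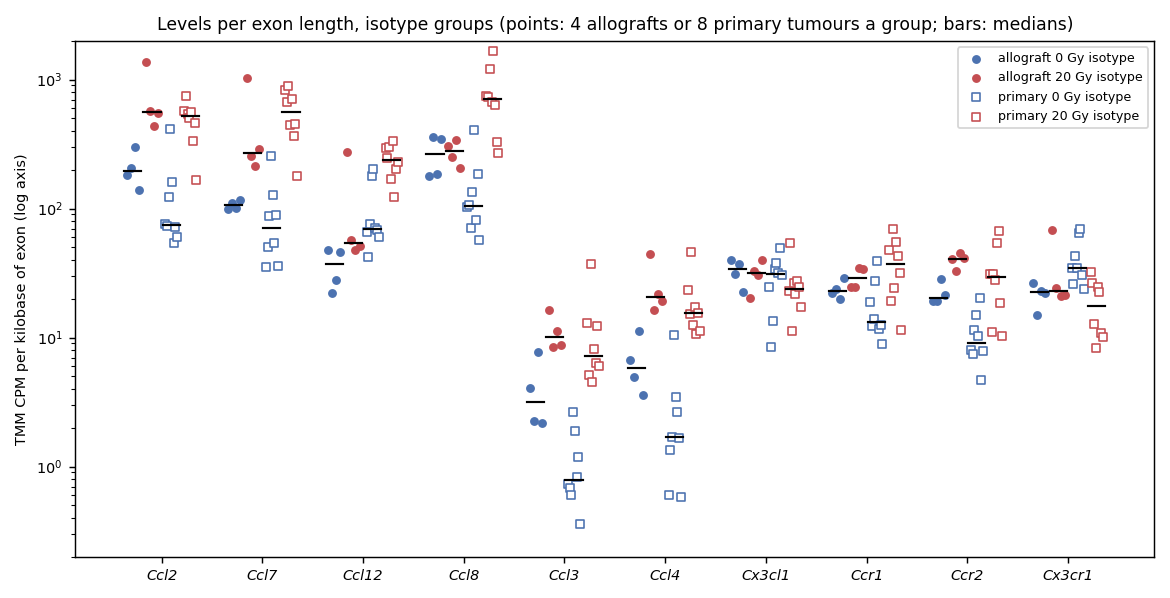
Level of each gene per kilobase of exon (TMM CPM per kb, log axis) in the isotype groups, 1 point per tumour (4 allografts or 8 primary tumours a group) with a bar at the median. Ccl3 and Ccl4 have the lowest medians, 0.784 and 1.69 in the primary 0 Gy tumours, and Ccl8 has the highest in each group shown except the 20 Gy allografts, where Ccl2 does.

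In the primary tumours with isotype antibody, 8 of the 10 genes rose after 20 Gy and 0 fell, where 7.85% of the 17770 genes tested were called higher, 6.64% lower and 14.5% in either direction (edgeR quasi-likelihood test, Benjamini-Hochberg adjusted p under 0.05). The rises covered all 6 CC ligands and both CC receptors, from 2.11-fold for Ccr1 to 10.5-fold for Ccl3. The CX3C ligand and receptor did not pass. The median log2 fold change was 1.75 over the 10 genes and -0.02 over all genes tested. Because the tumours were sequenced in bulk, a change in the number of cells of a type and a change in RNA per cell cannot be told apart in these values.

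Ccl2, the main ligand of CCR2, ran from 61.7 to 471.05 CPM with a median of 84.9 in the unirradiated isotype tumours and from 187.9 to 848.8 CPM with a median of 591.4 after 20 Gy (log2 fold change 1.92, SE 0.43, adjusted p = 0.00278). All 8 irradiated tumours lay above the control median, and 6 lay above the highest control, tumour 4, which stood well apart from the other controls.

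Ccl7, a second CCR2 ligand, went from a median of 56.4 CPM (28.4 to 202.98) to 448.2 CPM (143.7 to 713.5; log2 fold change 2.64, SE 0.45, adjusted p = 0.000238). A single irradiated tumour lay within the control range, and the highest control was again tumour 4. Ccl12 went from 37.4 CPM (22.7 to 108.3) to 128.4 CPM (66.6 to 178.5; log2 fold change 1.33, SE 0.38, adjusted p = 0.0187). Its 2 highest controls, tumours 4 and 5, reached into the irradiated range.

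Ccl8, the CCR8 ligand, went from a median of 53.2 CPM (29.1 to 206.7) to 358.5 CPM (136.8 to 848.5; log2 fold change 2.47, SE 0.50, adjusted p = 0.00121). Of the 8 irradiated tumours, 6 exceeded every control, and the highest control, tumour 5, was well above the rest.

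Ccl3 was low without radiation, at 0.273 to 2.03 CPM with a median of 0.600, and stood at 3.46 to 28.3 CPM with a median of 5.52 after 20 Gy (log2 fold change 3.39, SE 0.53, adjusted p = 9.73e-05). Ccl4 went from 1.11 CPM (0.386 to 6.96) to 10.2 CPM (7.03 to 30.6; log2 fold change 2.77, SE 0.51, adjusted p = 0.00043). For both MIP-1 genes every irradiated tumour lay above every control, as for 266 of the 17770 genes tested, and the highest value of each belonged to irradiated tumour 3.

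Ccr1, the receptor of Ccl3, went from a median of 37.3 CPM (25.4 to 112.001) to 105.5 CPM (32.7 to 197.8; log2 fold change 1.07, SE 0.32, adjusted p = 0.0208). Its ranges overlapped widely, and without irradiated tumour 3 the call was lost (log2 fold change 0.91, adjusted p = 0.057). Ccr2, the receptor of the inflammatory monocytes, went from 61.8 CPM (31.6 to 137.3) to 198.9 CPM (70.1 to 454.01; log2 fold change 1.58, SE 0.41, adjusted p = 0.00845). All 8 irradiated tumours exceeded the control median and 5 exceeded every control.

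The fractalkine genes did not follow the CC genes. Cx3cl1 had medians of 122.5 CPM (33.03 to 193.7) without and 93.4 CPM (43.8 to 211.3) with radiation (log2 fold change -0.15, 95% interval -0.85 to 0.54, adjusted p = 0.801). Cx3cr1 stood at 155.5 CPM (107.05 to 311.2) without and 79.3 CPM (37.5 to 146.2) with radiation (log2 fold change -1.13, 95% interval -1.98 to -0.28, adjusted p = 0.0661). The Cx3cr1 difference missed the threshold in edgeR and passed it in DESeq2 (log2 fold change -1.10, adjusted p = 0.0458), which called 9 of the 10 genes and 17.1% of all genes. In edgeR it also passed with the 2 groups alone (adjusted p = 0.0288), with all 48 tumours in 1 fit (0.0485) and without irradiated tumour 1 (0.0489). The mean of the isotype and anti-PD-1 radiation effects, which is a different contrast, passed as well (0.00428). The isotype difference did not pass with DESeq2's size factors (0.0793), without a filter (0.0952) or with the identifier digit (0.0758), the muscle score (0.0582) or Xist (0.0644) as covariate. Of the irradiated tumours, 0 of 8 exceeded the control median and 5 lay below every control.

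**Figure D2:**
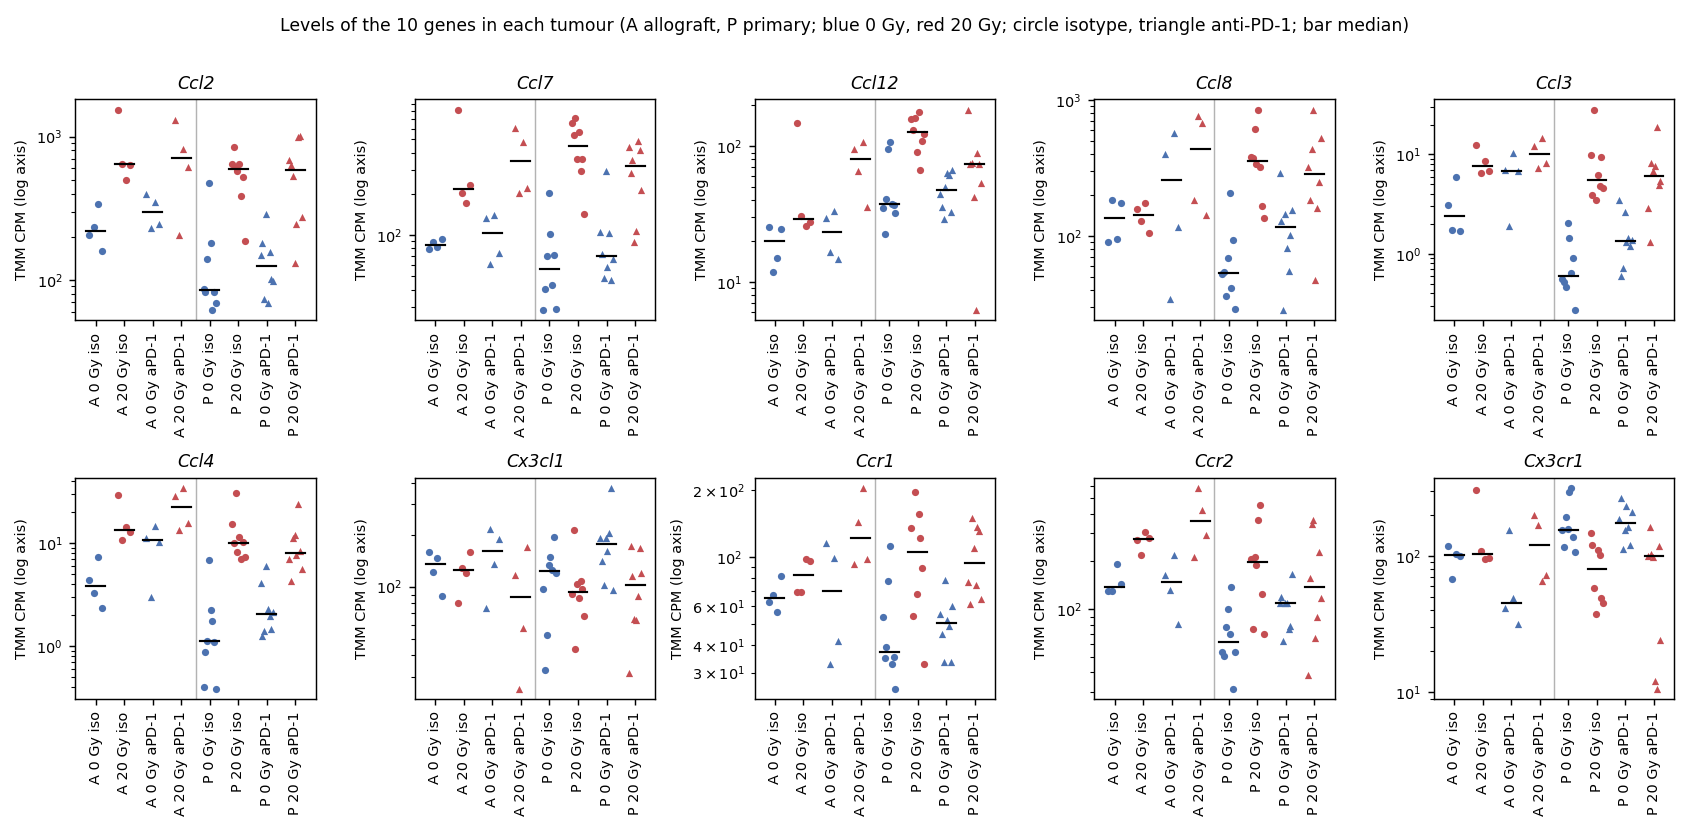
Level of the 10 genes in each of the 48 tumours (TMM CPM, log axis), by group, 1 point per tumour with a bar at the group median. In the primary isotype groups every irradiated Ccl3 and Ccl4 point lies above every control, and the Cx3cr1 medians go the other way, from 155.5 to 79.3 CPM.

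In the primary tumours that received anti-PD-1, 5 of the 10 genes rose after 20 Gy and 0 fell (6.06% of genes tested were called higher, 1.86% lower and 7.92% in either direction). The 5 were Ccl2, Ccl7, Ccl3, Ccl4 and Ccr1. Ccl2 went from a median of 124.96 CPM (69.2 to 289.8) to 582.1 CPM (130.5 to 1014; log2 fold change 2.02, SE 0.43, adjusted p = 0.00429). Ccl3 went from 1.35 CPM (0.594 to 3.504) to 6.06 CPM (1.31 to 18.9; log2 fold change 2.14, SE 0.50, adjusted p = 0.00846). Every irradiated tumour exceeded the unirradiated median for Ccl2, and 7 of 8 did for Ccl3, with overlapping ranges in both.

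Ccl7 (log2 fold change 1.60, SE 0.44, adjusted p = 0.0227) also rose, as did Ccl4 (log2 fold change 1.97, SE 0.49, adjusted p = 0.0126), and all 8 irradiated tumours exceeded the unirradiated median of each. Ccr1 was close to the threshold (log2 fold change 0.999, SE 0.32, adjusted p = 0.0461), and leaving out any of 11 of the 16 tumours, every tumour except unirradiated tumour 4 and irradiated tumours 1, 2, 5 and 8, ended its call (adjusted p up to 0.101). Ccl8 (log2 fold change 1.51, adjusted p = 0.0513), Ccr2 (0.77, 0.245), Ccl12 (0.65, 0.307) and Cx3cl1 (-0.81, 0.147) did not pass. Cx3cr1 had medians of 174.5 CPM (112.1 to 262.7) without and 99.02 CPM (10.6 to 161.5) with radiation (log2 fold change -1.18, SE 0.42, adjusted p = 0.0768). Of its 8 irradiated tumours 6 lay below every unirradiated one.

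In the allografts with isotype antibody, 3 of the 10 genes rose after 20 Gy and 0 fell (4.40% of the 17746 genes tested were called higher, 0.744% lower and 5.14% in either direction). The 3 were Ccl2, Ccl7 and Ccl4. The median log2 fold change was 1.18 over the 10 genes and -0.0019 over all genes tested. Ccl2 read 206.98, 234.4, 340.5 and 158.2 CPM in the 4 control allografts and 1544, 645.8, 496.7 and 632.01 CPM in the 4 irradiated ones (log2 fold change 1.83, SE 0.47, adjusted p = 0.0342). Ccl7 read 79.5, 88.4, 81.4 and 92.9 CPM in the controls and 826.8, 203.4, 172.3 and 231.3 CPM after 20 Gy (log2 fold change 2.07, SE 0.49, adjusted p = 0.0236). For both genes the groups did not overlap, and irradiated tumour 1 stood far above the other 3.

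Ccl4 read 4.41, 3.28, 7.38 and 2.35 CPM in the controls and 29.5, 10.8, 14.4 and 12.8 CPM after 20 Gy (log2 fold change 1.97, SE 0.49, adjusted p = 0.0296), again with no overlap and with irradiated tumour 1 highest. Ccl3 (log2 fold change 1.49, adjusted p = 0.0901), Ccl12 (1.58, 0.112) and Ccr2 (0.87, 0.124) did not pass. Their groups did not overlap, which was so, with the irradiated tumours higher, for 9.59% of all genes tested. Ccl8 read 90.8, 183.98, 94.3 and 176.3 CPM in the controls and 157.1, 129.2, 173.98 and 105.6 CPM after 20 Gy (log2 fold change 0.08, 95% interval -1.35 to 1.51), with interleaved groups. Cx3cr1 read 118.6, 67.6, 102.8 and 99.3 CPM in the controls and 305.05, 108.7, 94.0 and 96.97 CPM after 20 Gy (log2 fold change 0.65, adjusted p = 0.578), so that tumour 1 alone lay above the control range. Cx3cl1 (-0.06, 0.973) and Ccr1 (0.34, 0.68) did not pass either.

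These allograft calls were lost when single tumours were left out. Without irradiated tumour 1 the log2 fold changes were 1.37 for Ccl2, 1.28 for Ccl7 and 1.58 for Ccl4, with adjusted p-values of 0.0985, 0.064 and 0.083. Leaving out control tumour 1, 2 or 4 likewise ended all 3 calls (adjusted p 0.0794 to 0.131), irradiated tumour 4 those of Ccl2 (0.0611) and Ccl4 (0.0529), and irradiated tumour 3 that of Ccl4 (0.0594). The first digit of the animal identifier, which the labels do not explain, was 4 in 3 of the 4 irradiated tumours and in 0 of the 4 controls. With it as a covariate 0 of the 10 genes and 1.1% of all genes passed, and the log2 fold changes were 1.45 for Ccl2, 1.67 for Ccl7 and 2.02 for Ccl4.

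In the allografts given anti-PD-1, 2 of the 10 genes rose after 20 Gy and 0 fell (3.13% of genes tested were called higher, 0.828% lower and 3.96% in either direction). Ccl7 read 133.04, 61.9, 139.5 and 74.0 CPM without and 605.5, 201.5, 478.7 and 221.2 CPM with radiation (log2 fold change 1.90, SE 0.48, adjusted p = 0.0411). Its groups did not overlap, which was so, with the irradiated tumours higher, for 5.83% of all genes tested and for Ccl12, which was not called. Ccr2 read 163.4, 132.7, 219.01 and 81.3 CPM without and 212.01, 577.2, 419.8 and 295.3 CPM with radiation (log2 fold change 1.34, SE 0.31, adjusted p = 0.0261). The lowest irradiated tumour lay just inside the unirradiated range. Ccl2 read 399.9, 231.5, 348.7 and 245.4 CPM without and 1310.1, 204.1, 812.9 and 615.3 CPM with radiation (log2 fold change 1.28, adjusted p = 0.135), and irradiated tumour 2 lay below every unirradiated tumour. Leaving out single tumours ended the Ccl7 call in 5 of 8 cases (tumours 1, 2 and 4 without and 1 and 3 with radiation, adjusted p up to 0.147). It ended the Ccr2 call in 4 of 8 (tumours 2 and 4 without and 2 and 3 with radiation, adjusted p up to 0.0901). With the 2 groups alone 0 of the 10 genes passed (0.0059% of all genes), as with all 48 tumours in 1 fit (0.595%).

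**Figure D3:**
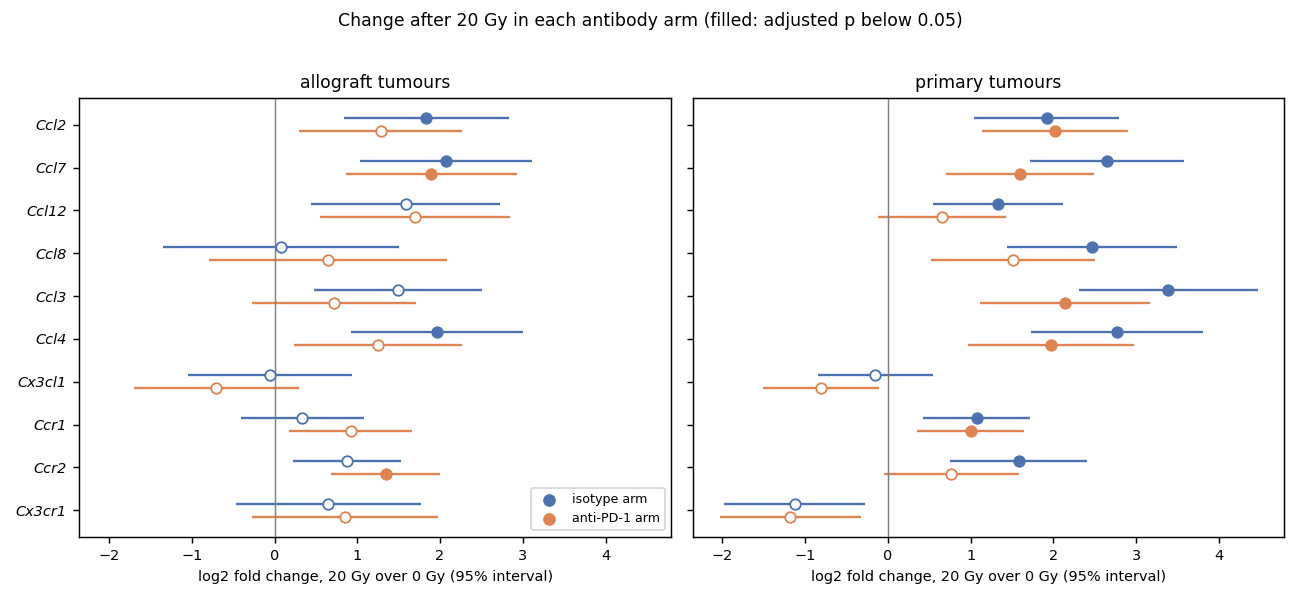
Log2 fold change of each gene, 20 Gy over 0 Gy, with its 95% interval, in the isotype and anti-PD-1 arms of the allografts and the primary tumours. Filled points passed an adjusted p of 0.05. In the primary tumours 8 isotype and 5 anti-PD-1 points are filled, all above 0 on the log2 scale, and the Cx3cr1 points lie at -1.13 and -1.18.

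Radiation with anti-PD-1 was also set against the 0 Gy isotype controls used above. Among the primary tumours 7 genes rose and 1 fell (8.78% of genes tested were called higher, 4.98% lower and 13.8% in either direction). The 7 were Ccl3 (log2 fold change 3.05), Ccl4 (2.45), Ccl8 (2.28), Ccl7 (2.04), Ccl2 (1.95), Ccr2 (1.31) and Ccr1 (0.99). Cx3cr1, with a median of 155.5 CPM in the controls and 99.02 CPM (10.6 to 161.5) after the combination, fell (log2 fold change -1.21, SE 0.42, adjusted p = 0.0497). In 3 of the 8 treated tumours it read 23.97 CPM or less. The Cx3cr1 call was lost with DESeq2's size factors (adjusted p = 0.0604), without a filter (0.0737), with the identifier digit (0.0541) or Xist (0.0519) as covariate and with the 2 groups alone (0.159). Cx3cr1 still passed with the muscle score (0.0461), with all 48 tumours (0.0337) and in DESeq2 (0.0305). Its call ended when any of 14 of the 16 tumours was left out, every tumour except treated tumours 2 and 7 (adjusted p up to 0.0984). That of Ccr1 ended with 9 of them, every tumour except control tumours 1, 4 and 5 and treated tumours 1, 2, 5 and 8 (up to 0.0693). The Ccr2 call ended without treated tumour 3 or 4 (adjusted p = 0.0743 and 0.0872) or control tumour 8 (0.0513), and with the muscle score (0.0606), Xist (0.0519) or the 2 groups alone (0.0603).

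In the allografts 6 genes rose with the combination and 0 fell (7.43% of genes tested were called higher, 2.23% lower and 9.66% in either direction). They were Ccl4 (log2 fold change 2.40, SE 0.49, adjusted p = 0.00699), Ccl7 (2.13), Ccl12 (1.97), Ccl3 (1.76), Ccl2 (1.64) and Ccr2 (1.32). Ccl12 read 25.5, 11.96, 15.1 and 24.8 CPM in the controls and 96.2, 65.8, 108.2 and 35.8 CPM after the combination. Its groups did not overlap, which was so, with the treated tumours higher, for 8.94% of all genes tested. It was also so for Ccl7, Ccl3, Ccl4, Ccr2 and Ccr1, of which Ccr1 was not called. Ccl4 and Ccl7 kept an adjusted p under 0.05 whichever of the 8 tumours was left out (up to 0.0292 and 0.0459). The Ccl12 call ended without any tumour other than treated tumour 4 (adjusted p up to 0.0991), that of Ccl2 without any tumour other than control tumour 3 and treated tumours 2 and 4 (0.108) and that of Ccl3 without any tumour other than control tumour 3 and treated tumours 2 and 4 (0.0927), each tumour taken singly. The Ccr2 call ended without control tumour 1 (0.0518). Cx3cr1 read 198.6, 168.4, 65.2 and 71.8 CPM in these tumours, on both sides of the control range.

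Anti-PD-1 against isotype at the same dose gave 0 calls among the 10 genes in both tumour kinds and at both doses (edgeR, adjusted p; 0% of genes tested were called in each of the 4 comparisons). DESeq2 also called 0 of the 10 in each. At an unadjusted p under 0.05, Ccl3 and Ccl4 were higher in the unirradiated allografts (2 genes; log2 fold changes 1.04 and 1.15, 95% intervals 0.04 to 2.05 and 0.13 to 2.17) and Ccl8 in the irradiated ones (1 gene; 1.61, interval 0.14 to 3.07), against 0 genes in the primary tumours. Of all genes tested, 1.68% reached that unadjusted p in the unirradiated and 3.84% in the irradiated allografts, and 2.32% and 8.12% in the primary tumours. Ccl8 read 404.1, 34.6, 578.6 and 115.8 CPM in the unirradiated allografts given anti-PD-1, a wider range than in either isotype group of allografts. Primary tumours gave 95% intervals that reached over the 10 genes from -0.92 to 1.91 without radiation and from -1.53 to 0.87 with it.

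The test of whether the radiation response depended on the antibody called 0 of the 10 genes in either kind (edgeR, 0% of genes tested; 0 of the 10 at an unadjusted p under 0.05, against 1.52% of all genes for allografts and 4.25% for primary tumours, and 0 by DESeq2). The response of Ccl3 differed by -1.25 on the log2 scale between anti-PD-1 and isotype in the primary tumours (95% interval -2.65 to 0.15) and that of Ccl7 by -1.05 (-2.29 to 0.19).

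Between the 0 Gy groups with isotype antibody, 2 of the 10 genes differed by tumour kind, both lower in the primary tumours (3.99% of the 17357 genes tested were called lower, 6.03% higher and 10.0% in either direction). Ccl3 read 3.10, 1.72, 5.90 and 1.68 CPM in the allografts against a primary median of 0.600 CPM (log2 fold change -1.87, SE 0.50, adjusted p = 0.0336). Of the 8 primary tumours 7 lay below every allograft. Ccr2 read 130.9, 130.6, 192.5 and 144.8 CPM against a primary median of 61.8 CPM (log2 fold change -1.06, SE 0.31, adjusted p = 0.0477), again with 7 of 8 primary tumours below every allograft. Ccl12 (log2 fold change 1.39, adjusted p = 0.0599) and Cx3cr1 (0.92, 0.0815) had the opposite sign and did not pass. Only 1 of the 10 genes passed with the muscle score (9.78% of all genes), with Xist (6.91%) or with all 48 tumours in 1 fit (10.3%). DESeq2 called 4 (16.5%). Leaving out a tumour ended the Ccl3 call in 8 of 12 cases (every tumour except primary tumours 4, 5, 7 and 8) and the Ccr2 call in 9 of 12 (every tumour except primary tumours 4, 6 and 7), with adjusted p-values up to 0.131 and 0.124, both reached without allograft tumour 3. The first digit of the animal identifier was 5 in all 4 of these allografts and 4 in all 8 primary tumours, so that digit and tumour kind cannot be told apart here.

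Whether the change after radiation differed between the tumour kinds was tested over all 48 tumours. Of the 10 genes, edgeR called 0 in the isotype arm, where 0.00517% of the 19327 genes tested were called, and 0 in the anti-PD-1 arm (0%). DESeq2 called 0 in each. An unadjusted p under 0.05 was reached by 9.90% of all genes tested and by 3 of the 10 genes in the isotype arm, where the log2 response differed, primary minus allograft, by 2.40 for Ccl8 (95% interval 0.65 to 4.14, adjusted p = 0.466), 1.90 for Ccl3 (0.31 to 3.48) and -1.78 for Cx3cr1 (-3.23 to -0.33). In the anti-PD-1 arm 1 gene did, Cx3cr1 (-2.06, -3.51 to -0.61, adjusted p = 0.905), against 4.77% of all genes. The like test of anti-PD-1 without radiation called 0 of the 10 (0% of genes tested, 0 of the 10 and 0.755% of all genes at an unadjusted p under 0.05, 0 by DESeq2). That of the combination called 0 as well (0%, 0 by DESeq2), with 2 genes, Ccl12 (-1.43) and Cx3cr1 (-1.60), at an unadjusted p under 0.05, against 6.41% of all genes.

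Ordered by group mean, Ccl2 lay between 551.5 and 829.7 CPM in the 4 irradiated groups and between 139.9 and 306.4 CPM in the 4 unirradiated ones. The step between these sets was the one gap in its order wider than the pooled SD of the neighbours. Ccl7 had the same arrangement, between 299.2 and 453.6 CPM and between 73.3 and 102.1 CPM. For Ccl3 and Ccl4 the one such gap lay between the unirradiated allografts with anti-PD-1 and those with isotype. Ccl12 had 2, below the irradiated primary isotype group (127.5 ± 38.0 CPM, SD, n = 8) and between the unirradiated primary and allograft groups with anti-PD-1. For Ccr1, Ccr2, Ccl8, Cx3cl1 and Cx3cr1 no neighbouring group means differed by more than their pooled SD. Cx3cr1 was highest in the unirradiated primary groups (183.5 ± 77.9 CPM with isotype and 179.5 ± 53.0 with anti-PD-1, SD, n = 8) and lowest in the unirradiated allografts given anti-PD-1 (69.1 ± 57.5 CPM, SD, n = 4).

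Gene pairs were compared by how far each tumour deviated from its group mean in log2(CPM + 0.5), which removes the group means. Ccl2 and Ccl7 deviated together in both kinds, with Pearson r = 0.90 (Spearman rho = 0.87) over 32 primary tumours and r = 0.80 (rho = 0.81) over 16 allografts (permutation tests, two-sided, adjusted p = 8e-05 and 0.0034 over 24 relations). Ccl3 and Ccl4 did so too, at r = 0.84 and 0.97 (rho = 0.82 and 0.95, permutation adjusted p = 8e-05 for both). The unadjusted p of 1e-05 behind each 8e-05 is the smallest that 100000 permutations can give. Without the 2 tumours farthest from the median of the first gene, r was 0.87 and 0.81 for Ccl2 with Ccl7 and 0.78 and 0.95 for Ccl3 with Ccl4.

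Over the 32 primary tumours Ccr1 deviated with its ligand gene Ccl3 (r = 0.67, rho = 0.68, permutation adjusted p = 0.00048, r = 0.61 without the farthest 2) and with Ccl7 (r = 0.61, rho = 0.61, permutation adjusted p = 0.00173, then r = 0.56). Ccr1 and Ccr2 had r = 0.54 (rho = 0.53, permutation adjusted p = 0.0104, then r = 0.52). Ccl2 and Ccl12 had r = 0.54 (rho = 0.61, permutation adjusted p = 0.0185, then r = 0.50). In the 16 allografts these 4 relations did not pass, with r = 0.37 for Ccl3 with Ccr1 (rho = 0.22, permutation adjusted p = 0.636), 0.25 for Ccl7 with Ccr1 (rho = 0.30, 0.636), 0.63 for Ccr1 with Ccr2 (rho = 0.69, 0.185) and 0.51 for Ccl2 with Ccl12 (rho = 0.50, 0.185). Without the farthest 2, these allograft r were 0.22, 0.68, 0.73 and 0.64 in that order, and the relations still did not pass. The difference between the kinds was not tested. Ccl2 and its neighbour Ccl8 did not pass in either kind. Their r was 0.21 in the primary tumours (rho = 0.28, permutation adjusted p = 0.609, then r = 0.41). In the allografts it was -0.08 (rho = 0.01, permutation adjusted p = 0.918, then r = 0.32).

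Ccl2 and its receptor gene Ccr2 had r = 0.04 in the primary tumours (rho = 0.08, permutation adjusted p = 0.918) and -0.28 in the allografts (rho = -0.01, permutation adjusted p = 0.676). In the allografts leaving out the farthest 2 turned the sign (r = 0.39). Ccl7 and Ccl12 gave r of 0.10 and 0.08 with Ccr2 in the primary tumours. Cx3cl1 and Cx3cr1 had r = 0.17 in the primary tumours and -0.10 in the allografts (rho = 0.20 and -0.04, permutation adjusted p = 0.666 and 0.918), and the allograft sign turned without the farthest 2 (r = 0.23).

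**Figure D4:**
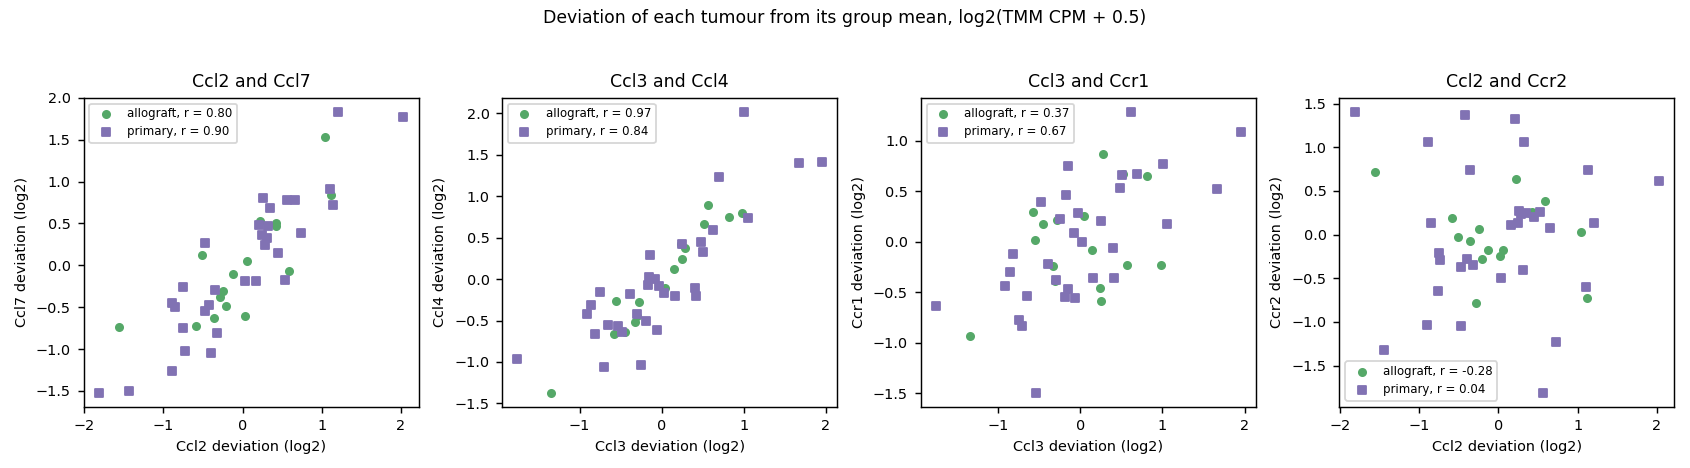
Deviation of each tumour from its group mean in log2(CPM + 0.5) for 4 gene pairs, 1 point per tumour, in 16 allografts and 32 primary tumours, with Pearson r. The Ccl2 and Ccl7 points follow a line (r = 0.80 and 0.90), as do those of Ccl3 and Ccl4 (0.97 and 0.84), while Ccl2 and Ccr2 form a cloud (-0.28 and 0.04).

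As a description, the genes whose deviations over all 48 tumours were most like those of Ccl2, Ccr2 and Cx3cr1 were listed, out of 11722 genes averaging 5 CPM or more. For Ccl2 they were Ccl7 (r = 0.88) and the interferon-stimulated genes Ifitm3 (0.77) and Isg20 (0.76). For Ccr2 they were Myo1g (0.86), a myosin of blood cells, Ptprc (0.86), which encodes the leukocyte surface protein CD45, and Rnase6 (0.86). For Cx3cr1 they were Ppfia4 (0.81), Hpgds (0.79), the hematopoietic prostaglandin D synthase, and Kcnj10 (0.77), a potassium channel. The genes of a tumour share its library and its cell content.

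Ccr8, the receptor of Ccl8, had group medians of 0.324 to 1.18 CPM, and for radiation with isotype its log2 fold change was 0.76 in the primary tumours (adjusted p = 0.492) and 0.24 in the allografts (0.781).

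Other genes of the CC chemokine system were counted in the same comparisons. In the primary isotype tumours 11 of 24 tested rose and 0 fell, against 7.85% of all genes called higher, with a median log2 fold change of 1.205. The 4 with the largest changes, among those averaging at least 1 CPM in the higher group, were Ccl11 (2.94), which encodes the eosinophil attractant eotaxin, Ccl6 (2.78), the T cell and monocyte attractant Ccl5 (2.76) and Ccrl2 (2.36), an atypical receptor that binds chemerin. Ccl5 went from a median of 26.2 CPM (10.5 to 72.9) to 189.98 CPM (106.7 to 310.9), without overlap. In the allografts 2 of 25 rose and 0 fell (median 0.41), a share near the 4.40% of all genes called higher. Ccl5 read 24.6, 45.9, 34.9 and 19.9 CPM in the controls and 345.8, 148.8, 120.8 and 175.8 CPM after 20 Gy (log2 fold change 2.67, SE 0.51, adjusted p = 0.0077), and Ccrl2 rose by a log2 fold change of 2.23 (SE 0.33, adjusted p = 0.00212). With the combination 10 of 24 rose in the primary tumours (median 1.303) and 5 of 25 in the allografts (median 1.23), and 0 fell in both, where 8.78% and 7.43% of all genes were called higher.

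Of 15 genes for receptor signalling, desensitisation and ligand shedding, 4 rose and 3 fell in the primary isotype tumours, against 7.85% of all genes called higher and 6.64% lower (median log2 fold change 0.01). Those that rose were Arrb2, a receptor-binding arrestin (0.89), and Rac2 (0.81), Dock2 (0.86) and Vav1 (0.86), which act in leukocyte migration. Those that fell were the G protein subunit genes Gnai3 (-0.48) and Gnb1 (-0.32) and Adam10 (-0.41), a protease that sheds fractalkine. In the allografts 4 rose and 0 fell (median 0.42; 4.40% of all genes were called higher), namely Arrb2, Grk2, Rac2 and Vav1. With the combination 4 rose in the primary tumours (median 0.23) and 6 in the allografts (median 0.44), and 0 fell in either (8.78% and 7.43% of all genes were called higher).

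Leukocyte markers were counted in the same comparisons, in which 7.85% of all genes were called higher in the primary and 4.40% in the allograft isotype arms, 6.06% and 3.13% in the anti-PD-1 arms, and 8.78% and 7.43% with the combination. In the primary isotype tumours all 6 pan-leukocyte markers rose (median log2 fold change 1.15), and their sum, 481.5 to 808.9 CPM in the controls, was 824.6 to 1975 CPM after 20 Gy, with no overlap. Of 10 monocyte markers 5 rose and 0 fell (median 1.49), among them Ly6c2 (3.05), Fcgr4 (2.71), Plac8 (2.55) and Itgam (0.84). Their sum ran from 296.4 to 909.5 CPM without and from 530.9 to 2292 CPM with radiation. Of 12 macrophage markers 5 rose and 0 fell (median 0.67), with Fcgr1 at 1.75, while Csf1r, the receptor of macrophage colony-stimulating factor, gave -0.37 (adjusted p = 0.38). The macrophage sum ran from 2707 to 5770.1 CPM without and from 3655 to 7911 CPM with radiation.

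In the isotype allografts 5 of the 6 pan-leukocyte markers rose (median 1.19), and their sum, 581.3 to 1152 CPM in the controls, was 1473 to 2224 CPM after 20 Gy, also without overlap. There, 3 of 10 monocyte markers rose (among them Ly6c2 and Fcgr4; median 1.36) and 2 of 12 macrophage markers (Fcgr1 and Cd68; median 0.81). With radiation in the anti-PD-1 arms, 3 of 6 pan-leukocyte, 5 of 10 monocyte and 3 of 12 macrophage markers rose in the primary tumours, and 3, 0 and 2 in the allografts. The primary sums overlapped there, at 503.5 to 840.4 CPM without and 423.2 to 2079 CPM with radiation for the pan-leukocyte list and at 2496 to 5094 CPM without and 1797 to 9799.5 CPM with radiation for the macrophage list. The allograft pan-leukocyte sums did not overlap (619.003 to 1414 and 1923 to 2625 CPM). With the combination, 5 pan-leukocyte, 7 monocyte and 3 macrophage markers rose in the primary tumours (medians 1.10, 1.72 and 0.65), and 6 of each in the allografts (medians 1.48, 1.56 and 1.12). None of the markers in these 3 lists was below 1 CPM in all 48 tumours. The part of leukocyte content in the chemokine and receptor changes was not tested.

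Genes of the pathways known to induce chemokines were counted as well, to be read against the shares of all genes just given. All 12 genes of the type I interferon response rose after 20 Gy with isotype in both kinds (median log2 fold change 2.09 in primary tumours and 2.75 in allografts), and with the combination 10 and 12 of them did. Of 10 NF-kappaB target genes, 7 rose in the primary isotype tumours (median 0.996), with the cytokine genes Tnf at 2.35 and Il6 at 2.54, and 4 in the allografts (median 0.71). With the combination 7 and 5 rose (medians 1.22 and 0.95). The part of these pathways in the chemokine and receptor changes was not tested.

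Markers of other cell types in the primary isotype tumours, where 7.85% of all genes were called higher, gave 2 of 8 neutrophil markers higher (median log2 fold change 2.23), 2 of 8 NK cell markers (1.11), 2 of 8 dendritic cell markers (0.49), 0 of 10 T cell markers (0.76), 0 of 10 skeletal muscle markers (2.22) and 0 of 10 endothelial markers (-0.35). Of these lists 0 genes fell. Vim (mesenchymal, -0.72) and Krt18 (epithelial, -3.06) fell and 0 others of their lists were called, where 6.64% of all genes were called lower. In the isotype allografts, where 4.40% of all genes were called higher and 0.744% lower, 3 of 8 NK cell, 1 of 8 dendritic cell and 1 of 10 endothelial markers rose. The neutrophil marker Ngp fell (-7.28), and 0 T cell or muscle markers were called. The sum of the whole neutrophil list did not fall with Ngp. It ran from 68.9 to 303.6 CPM (median 105.1) in the control allografts and from 125.4 to 195.5 CPM (median 147.3) after 20 Gy. The summed skeletal muscle level ran from 66.9 to 5904 CPM in the unirradiated and from 287.7 to 46634 CPM in the irradiated primary isotype tumours. With a muscle score as covariate, 8 of the 10 chemokine and receptor genes passed there, against 14% of all genes tested.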

How the data were processed

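RNA of 48 tumours was sequenced. The deposited table holds raw gene counts made by the authors. Per the submitters' processing notes, Trimmomatic 0.36, STAR and HTSeq were used with mm10, and the annotation release and strand setting are not given in the sources used here. Symbols, coordinates and exon lengths came from GENCODE M21 (GRCm38).

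The 4 groups of a tumour kind were fitted together with edgeR 4.0.16 (R 4.3.3) after filterByExpr and TMM scaling, using the quasi-likelihood F test and Benjamini-Hochberg adjustment over all genes, with calls at 0.05. The kinds at 0 Gy with isotype were fitted as 2 groups and the differences between kinds over 48 tumours. CPM uses TMM factors over all tumours. Alternatives were DESeq2 1.42.0, its size factors, no filter, covariates (identifier digit, muscle score, Xist), other sample sets and each tumour left out. Pair correlations used 100000 permutations within groups (Python 3.11.15, numpy 2.4.6, scipy 1.17.1). At 31.8 to 54.0 M counts a library, counting error is largest for genes near or below 1 CPM, such as Ccl3 and Ccr8. Tested on simulated data, the fit recovered 42% of 2-fold and 85% of 4-fold changes in the allografts, and 53% and 84% in the primary tumours.

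All 10 members are named whatever their values. Of other CC genes the 4 called with the largest change and at least 1 CPM are named, together with Ccr8 and the 3 nearest genes of Ccl2, Ccr2 and Cx3cr1. Genes in other lists are named as examples, chosen after their values were seen. The members and lists were chosen with earlier results of these data known. Some list members are not reported here.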

Additional observations from a re-analysis of the deposited data

Results flagged for a closer look

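Single tumours stood apart from their group in 4 of the 80 sets of values tested (10 genes in 8 groups, by the gap to the nearest tumour relative to the group's range on the log2(CPM + 0.5) scale), where chance gives about 1 in 20. Allograft tumour 1 of the 20 Gy isotype group read 147.7 CPM for Ccl12 against 25.8 to 30.6 CPM in the other 3, and 305.05 CPM for Cx3cr1 against 94.0 to 108.7 CPM. The same tumour had a type I interferon sum of 6921 CPM against 3365 to 4244 CPM in the other 3, and the part of this in its chemokine values was not tested. Primary tumour 4 of the 0 Gy anti-PD-1 group read 294.4 CPM for Ccl7 against 46.6 to 105.6 CPM in the other 7. Primary tumour 5 of the 20 Gy anti-PD-1 group read 6.24 CPM for Ccl12 against 42.1 to 186.7 CPM in the other 7.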

How the results depend on the processing

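How many of the 10 genes passed was least stable in the allografts. For radiation with isotype (3 genes), 0 passed with the identifier digit as covariate (1.1% of all genes were called), 0 with all 48 tumours in 1 fit (1.92%), 6 with the antibody arms averaged (13.7%) and 5 by DESeq2 (8.62%). For radiation with anti-PD-1 (2 genes), 1 passed with the identifier digit (3.78%), 1 with Xist as covariate (2.86%), 0 with all 48 tumours (0.595%), 0 with the 2 groups alone (0.0059%) and 6 with the arms averaged (13.7%). For the combination (6 genes), 3 passed with all 48 tumours (4.4%). In the primary tumours, radiation with anti-PD-1 (5 genes) gave 9 with the arms averaged (26.3%). The comparison of the kinds at 0 Gy with isotype (2 genes) gave 1 with a muscle score (9.78%), 1 with Xist (6.91%), 1 with all 48 tumours (10.3%) and 4 by DESeq2 (16.5%). Xist, the RNA that coats the inactive X chromosome of females, was above 10 CPM in 1 of 4 unirradiated and 3 of 4 irradiated allografts in each antibody arm, and in 5 of 8 unirradiated and 2 of 8 irradiated primary isotype tumours.

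Leaving out 1 tumour at a time gave 0 to 4 genes for radiation with isotype, 0 to 2 with anti-PD-1 and 2 to 6 for the combination in the allografts, 7 to 9, 4 to 7 and 5 to 8 in the primary tumours, and 0 to 4 between the kinds at 0 Gy with isotype. Over all settings 404 counts were recomputed, of which 361 stayed within 1.5 times the reported one, and of 4040 values for single genes 3864 kept their side of the threshold, 42 gained a call and the rest lost one, and 0 called values changed sign. Many of the unchanged counts are 0 calls that stayed 0, as in the comparisons of anti-PD-1 with isotype and the interaction tests. The totals therefore say little about the comparisons that had calls. Scaling by DESeq2's size factors moved the median of all genes by -0.03 to 0.05 on the log2 scale. The identifier digit could not be added to that comparison of the kinds. The correlation of Ccr2 with Cx3cr1 in the primary tumours (r = 0.46, permutation adjusted p = 0.122) passed as a rank correlation (0.54) and without the 2 farthest tumours (0.59). The cause of these shifts was not tested. No paired analysis was possible because the labels give no replicate numbers shared between groups. Depth limits Ccl3 and Ccr8, whose medians were below 1 CPM in the 0 Gy isotype primary tumours.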
